A study of Mus musculus with 68 samples.

Results

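The comparison described here asks what the TRAMP transgene was accompanied by, early in life, in the prostate of mice that lack SPARC. It compared 13 of the 68 arrays of the series: 6 from SPARC-/- TRAMP+/- mice (codes ST22 to ST27) and 7 from SPARC-/- TRAMP-/- mice (codes S1 and S7 to S12). The spread used in the limma tests below came from a fit to 67 arrays, those of other genotypes and ages included. Groups were taken from the genotype and age labels, each array carries the code of its own animal, and every difference is transgenic minus non-transgenic. Of the transgenic mice, 4 were 18 weeks old and 2 (ST22 and ST23) were 19 weeks old. Of the non-transgenic mice, 6 were 18 weeks old and 1 (S1) was 16 weeks old. The SPARC deletion is carried by both groups, which the labels set apart by the transgene. Age differs between them too, through ST22, ST23 and S1. The tissue label reads prostate tumors for all 13, the non-transgenic mice included, and the strain is not given in the labels used here. Array O12 is labelled SPARC-/- without the transgene but has a code of the osteopontin (OPN) series, and was left out. Its Sparc value was 7.24.

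TRAMP mice carry the early region of the virus SV40 under the probasin promoter, which is active in prostate epithelium and depends on androgen. The large T antigen made from it binds the retinoblastoma proteins, which otherwise hold back the E2F transcription factors that switch on genes of DNA replication, and it also binds p53. SPARC is a secreted glycoprotein that binds collagen and is made mainly by stromal cells. The transgene is confined by its promoter to cells in which probasin is active, so a bulk tissue array mixes transgenic epithelium with cells that do not express it. In such tissue, fewer cells of a type and less RNA per cell cannot be told apart.

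The values are log2 signals of 22206 probe sets, of which 19572 have 1 gene symbol. The array also carries 6 control probe sets for SV40. Their mean was 5.85, 6.87 and 7.62 (lowest, median and highest) on the 6 transgenic arrays, and between 5.02 and 5.36 on the 7 non-transgenic arrays. All 6 transgenic arrays lay above all 7 others, with ST22 (5.85) and ST23 (6.37) the lowest of them. The difference was 1.65 (exact permutation test, 2-sided, p = 0.00117, the smallest that 6 against 7 arrays can give; 0.00351 adjusted over 3 such tests).

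The separation of positive from negative control probe sets (AUC, the chance that a positive control reads above a negative one) served as a measure of array quality. It was 0.689 on ST22 and 0.706 on ST23, between 0.733 and 0.741 on the other transgenic arrays, 0.682 on S1 and between 0.735 and 0.775 on the other non-transgenic arrays. The 3 arrays of lowest quality were therefore also the 3 animals that were not 18 weeks old. The mean difference of -0.0213 did not pass an exact permutation test (p = 0.178), but did among 18-week animals (-0.0183, exact permutation p = 0.0381). Quality and age on these 3 arrays cannot be told apart. For the genes named below, the adjusted p with the AUC as a covariate or in 18-week animals (4 against 6) is given where it ends or makes a call.

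**Figure D1:**
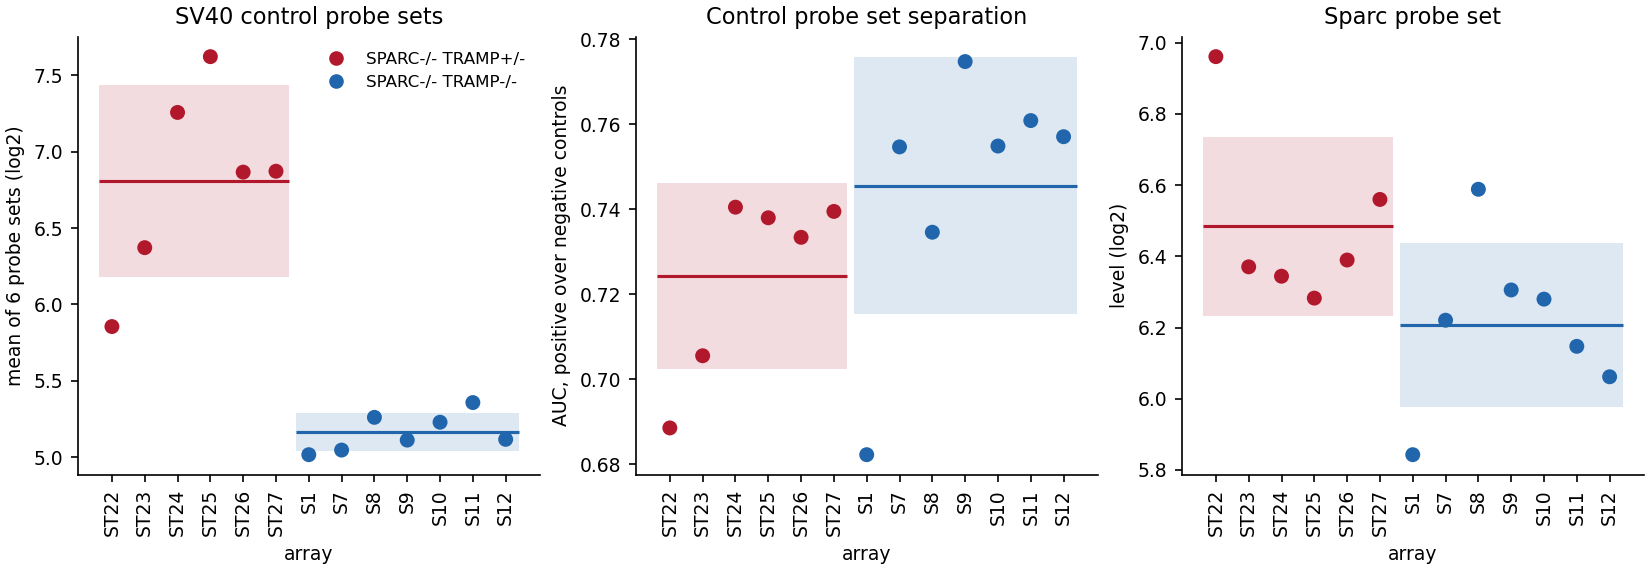
Values of the 13 arrays for the mean of the 6 SV40 control probe sets (log2), the separation of positive from negative control probe sets (AUC) and the Sparc probe set (log2). Points are arrays, lines are group means and bands are 1 SD; SV40 values are apart between the groups, while Sparc values and AUC overlap.

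Sparc read 6.28, 6.38 and 6.96 (lowest, median and highest) on the transgenic arrays and 5.84, 6.22 and 6.59 on the non-transgenic arrays. These ranges overlap, and the difference of 0.28 ± 0.17 (SE) did not pass the limma test (adjusted p = 0.389). Nor did it pass an exact permutation test (p = 0.0559, and 0.0838 adjusted over 3 such tests). Among early mice without the transgene, the 4 arrays of mice with no deletion (6.72 to 7.33) read above the 7 SPARC-null arrays. Among early transgenic mice, SPARC-null arrays overlapped those with wild-type Sparc (6.18 to 7.35). The labels do not say whether the probe set lies in the deleted sequence. As a check on the tissue, Pbsn, which encodes the prostate secretory protein probasin, read 9.88 to 12.55 over the 13 arrays. These values lie above the 95th percentile of the negative controls (9.20).

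Of 22206 probe sets, 558 (2.51%) had an adjusted p under 0.05 in limma, 324 higher (1.46%) and 234 lower (1.05%) with the transgene. Among these, 33 rose and 27 fell by at least 2-fold. The median difference over all probe sets was 0.04. The split of calls depends on scaling: 58.1% were higher in the deposited values, 48.0% after centring arrays on their medians and 48.2% after cyclic loess. The ranges of the groups were apart for 182 probe sets (0.82%), 121 higher and 61 lower, and 123 of these were among the calls. With the AUC as a covariate 709 probe sets (3.19%) were called, 519 higher and 190 lower, among them 391 of the 558. In 18-week animals 461 (2.08%) were called, among them 321 of the 558. With age in weeks as a covariate 402 were called, 248 higher and 154 lower, among them 384 of the 558. Without S1 alone the count was 1737, without ST22 and ST23 it was 360, and leaving out S7, S9, S10, S11 or S12 gave 297 to 361. With only the 13 arrays in the fit 80 were called (58 higher, 22 lower), and with 1 weight per array 2523. Of the genes named by rule, 17 of 30 rises and 5 of 27 falls passed with only the 13 arrays.

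The clearest rise was in genes of DNA replication and cell division. Over 4 lists (E2F targets and DNA replication, mitosis, DNA repair and checkpoint, chromatin factors), 39 of 98 measured genes rose, 0 fell, and the median difference was 0.42. Of all probe sets, 1.46% rose. Of 33 measured genes of the list of E2F targets and DNA replication, 15 rose (45.5%) and 18 did not pass the test, with a median of 0.48. Of 31 mitotic genes, 12 rose (38.7%) and 19 did not pass (median 0.42). Of 18 DNA repair and checkpoint genes, 5 rose (27.8%, median 0.34), and of 16 chromatin factors, 7 rose (43.8%, median 0.13). In 18-week animals 16, 13, 6 and 6 members of these lists rose and none fell. The mean level of a list is the mean deviation of its genes from their means over the 13 arrays. For the E2F target list it was 0.16 to 0.48 on the transgenic and -0.34 to -0.20 on the non-transgenic arrays.

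Ccne2, which encodes cyclin E2, the partner of CDK2 at the entry into S phase, had the largest rise among named probe sets that passed. It read 8.46, 9.97 and 10.39 (lowest, median and highest) on the transgenic arrays and 6.17, 7.12 and 7.57 on the non-transgenic arrays. The ranges are apart, and the difference was 2.76 ± 0.29 (adjusted p = 1.82e-09). Its relative Ccne1 (cyclin E1) rose by 0.98 ± 0.21 (adjusted p = 0.00352), with ranges that overlap (7.09 to 9.08 against 6.89 to 7.81).

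The helicase that opens DNA at origins was represented by several subunits of the MCM ring. Mcm4 read 5.05, 5.46 and 5.84 against 3.97, 4.32 and 4.55, with ranges apart, a difference of 1.18 ± 0.19 (adjusted p = 6.54e-05). Its non-transgenic mean exceeded only 32.1% of the negative control values, so its level there is not set apart from background. The same holds for Cdk1 (29.8%), Irf7 (30.3%) and Olfr168 (29.9%) below. Other calls below also had their lower group mean under the median of the negative controls. They include Olfr171 (34.6%), Olfr169 (35.5%), Cd3d (39.7%), Obp2a (43.0%), Clec3b (44.4%) and Clspn (49.0%), and also H2bc18, Chaf1b and Arf4. Mcm2 rose by 0.94, Mcm6 by 0.92, Mcm5 by 0.73 and Mcm3 by 0.57 (adjusted p from 0.000103 for Mcm2 to 0.0132 for Mcm3). Of their loading factors, Cdc6 rose by 0.94 ± 0.17 (adjusted p = 0.000697) and Cdt1 by 0.48 ± 0.13 (adjusted p = 0.0297). Cdc6 values were apart between the groups (5.98 to 6.79 against 5.39 to 5.89), while those of Cdt1 overlapped, and Cdt1 had an adjusted p of 0.0523 with the AUC as a covariate.

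Genes that act at the fork rose as well. Pcna, the sliding clamp of DNA polymerases, read 7.22, 7.89 and 8.35 against 5.73, 6.67 and 7.29, a difference of 1.26 ± 0.24 (adjusted p = 0.00117). ST26 (7.22) and ST22 (7.28) were just below the highest non-transgenic array, S9 (7.29). Lig1, the ligase that joins Okazaki fragments, rose by 1.03 ± 0.16 (adjusted p = 6.21e-05) with ranges apart. Rrm2, a subunit of ribonucleotide reductase, rose by 0.68 ± 0.17 (adjusted p = 0.0149), with an adjusted p of 0.0609 in 18-week animals. Among repressor E2Fs, which are themselves E2F targets, E2f8 rose by 1.04 ± 0.21 (adjusted p = 0.00187) and E2f7 by 0.49 ± 0.11 (adjusted p = 0.00698).

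Chromatin factors of dividing cells gave some of the largest differences. Hells, a helicase of the SNF2 family needed for DNA methylation, read 7.11, 8.26 and 8.79 against 5.08, 5.68 and 6.22, which are apart. The difference was 2.58 ± 0.27 (adjusted p = 1.82e-09). Asf1b, a chaperone of newly made histones H3 and H4, read 9.07, 10.93 and 11.31 against 7.59, 8.27 and 8.92, also apart. Its difference was 2.12 ± 0.29 (adjusted p = 3.72e-06), and ST22 and ST23 were the lowest of the transgenic arrays. Ezh2, the methyltransferase of Polycomb repressive complex 2, read 9.30, 9.71 and 10.29 against 8.30, 8.60 and 8.91, a difference of 1.16 ± 0.17 (adjusted p = 9.08e-06) with ST22 and ST23 the highest. Hmgb2 rose by 1.08 (adjusted p = 0.0104), Chaf1b, a subunit of chromatin assembly factor 1, by 0.73 (adjusted p = 0.000483) and Dnmt1, the maintenance DNA methyltransferase, by 0.55 (adjusted p = 0.00179).

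Of the DNA repair genes, Brca2, which acts in repair by homologous recombination, rose most. It read 7.46, 7.99 and 8.60 against 6.22, 6.91 and 6.98, ranges apart, a difference of 1.27 ± 0.18 (adjusted p = 9.69e-06). Rad54l rose by 0.48 (adjusted p = 0.00266) and the checkpoint adaptor Clspn by 0.45 (adjusted p = 0.0183), both with ranges apart. Topbp1, an activator of the ATR checkpoint kinase, rose by 0.43 (adjusted p = 0.0325), with overlapping ranges.

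Among mitotic genes, Ube2c, the ubiquitin-conjugating enzyme of the anaphase-promoting complex, read 8.01, 8.38 and 8.78 against 6.12, 6.57 and 7.45. The ranges are apart and the difference was 1.74 ± 0.22 (adjusted p = 8.4e-07). Mki67, the marker of cycling cells, read 5.68, 7.05 and 7.80 against 5.15, 5.49 and 6.19, a difference of 1.32 ± 0.23 (adjusted p = 0.000238). For Mki67 the 4 transgenic arrays of 18-week mice (6.78 to 7.80) were above all non-transgenic arrays, and ST22 (5.85) and ST23 (5.68) were within their range. Cdk1, the mitotic kinase, rose by 0.81 ± 0.17 (adjusted p = 0.00337) and Plk1, a kinase of spindle assembly, by 0.79 ± 0.16 (adjusted p = 0.00312). Both overlapped through S1, which read 5.19 for Cdk1 and 7.69 for Plk1 and was the highest non-transgenic array for each. Tpx2, a spindle factor, rose by 0.74 (adjusted p = 0.000483) with ranges apart. The cyclin genes Ccnb2 and Ccna2 rose by 0.64 and 0.53 (adjusted p = 0.00258 and 0.0264).

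The other genes among the 12 largest rises include further cell cycle genes. Pbk, a mitotic kinase, read 8.14, 9.60 and 10.31 against 5.60, 6.62 and 8.27, a difference of 2.60 ± 0.39 (adjusted p = 2.46e-05), and S9 was the only non-transgenic array within the transgenic range. Ckap2l, a protein of the mitotic spindle, rose by 1.33 ± 0.23 (adjusted p = 0.000274), and Zfp367, a zinc finger protein, by 1.50 ± 0.27 (adjusted p = 0.000483). H2bc14, a histone H2B gene, read 8.04, 8.63 and 9.09 against 6.97, 7.39 and 7.60, a difference of 1.34 ± 0.18 (adjusted p = 3.72e-06) with ranges apart.

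Genes outside the cell cycle were also among these rises. Fxyd3, a regulator of the sodium pump made in epithelia, read 8.90, 9.85 and 10.44 against 7.39, 8.27 and 8.52, a difference of 1.60 ± 0.31 (adjusted p = 0.00124) with ranges apart. Obp2a, a lipocalin of the odorant-binding family, read 5.36, 6.33 and 7.56 against 4.64, 4.96 and 5.27. Its difference was 1.57 ± 0.33 (adjusted p = 0.00347), and its transgenic values spread over more than 2 log2 units (SD 0.94 against 0.21). Pid1, a phosphotyrosine interaction domain protein, rose by 1.32 ± 0.39 with an adjusted p of 0.0475. It passed without ST22 and did not pass when any other single array was left out (adjusted p from 0.0503 to 0.0961).

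**Figure D2:**
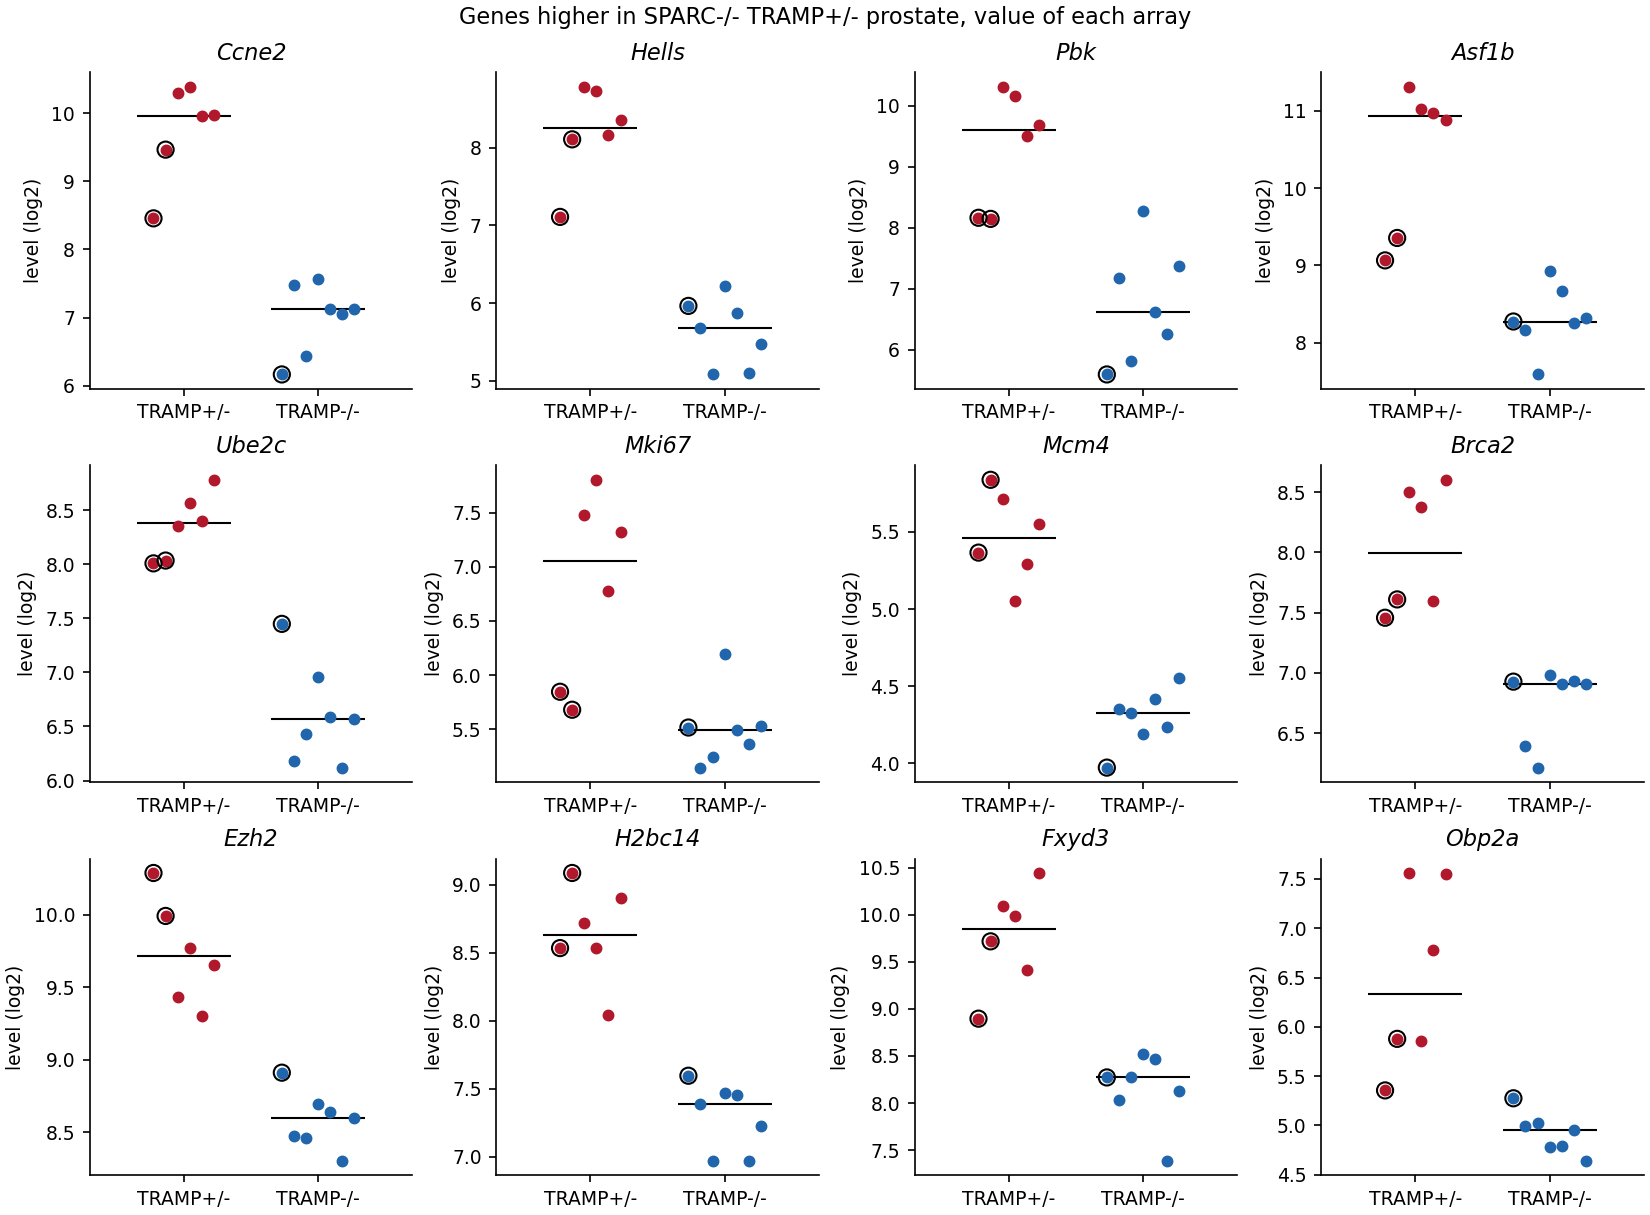
Log2 value of each array for 12 genes that rose with the transgene, SPARC-/- TRAMP+/- (6 arrays) beside SPARC-/- TRAMP-/- (7 arrays). Lines are medians and rings mark ST22, ST23 and S1; the groups are apart for all genes shown except Pbk and Mki67.

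The sequences before the transcription start of 4 of these genes are shown for the motifs by which E2F and mitotic promoters are known. They were read from RefSeq promoters of assembly GRCm38.p6. The E2F motif searched was TTTCCCGC, TTTCGCGC, TTTGCCGC or TTTGGCGC on either strand, in the 250 bases before the start. The cell cycle homology region (CHR), a motif of mitotic genes, was searched as TTTGAA on either strand. Among genes of the E2F target and mitosis lists that rose and have a promoter in the table, the 3 with the largest rise whose window holds an E2F motif are shown, beside the one with the largest rise whose window holds none. Capitals mark E2F motifs, and in Cdk1 and Ube2c also CHR motifs.
Cdc6, chr11:98907993-98908150, plus strand: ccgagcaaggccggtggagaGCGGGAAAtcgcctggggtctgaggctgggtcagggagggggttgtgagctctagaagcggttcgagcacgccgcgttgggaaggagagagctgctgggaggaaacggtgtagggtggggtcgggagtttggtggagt
Mcm6, chr1:128359706-128359835, minus strand: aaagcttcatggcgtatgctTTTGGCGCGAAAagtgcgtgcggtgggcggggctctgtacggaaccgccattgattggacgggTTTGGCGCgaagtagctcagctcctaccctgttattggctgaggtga
Cdk1, chr10:69352913-69353063, minus strand: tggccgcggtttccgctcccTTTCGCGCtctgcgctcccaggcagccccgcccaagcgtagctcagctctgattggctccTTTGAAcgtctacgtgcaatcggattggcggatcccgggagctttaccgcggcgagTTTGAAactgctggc
Ube2c, chr2:164769809-164769928, plus strand: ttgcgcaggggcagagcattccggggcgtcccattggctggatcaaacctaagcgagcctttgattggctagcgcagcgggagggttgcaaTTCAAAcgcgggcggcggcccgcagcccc
Each sequence ends at the base before the start. In Cdc6 the motif begins at -138, counted in bases from the start. In Mcm6 motifs on opposite strands overlap at -110 and -106, and another lies at -47. In Cdk1 the E2F motif lies at -131 and CHR motifs at -71 and -15. In Ube2c, which holds no such E2F motif, a CHR motif lies at -29.

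An E2F motif was present in 583 of 27025 genes with a promoter in the table (2.16%), and a CHR motif in 4934 (18.3%). Among the 15691 of these genes with a probe set, 441 held the E2F motif (2.81%) and 2526 the CHR motif (16.1%). Of the 28 genes of the E2F target list with a promoter there, 7 held the E2F motif (25.0%) and 5 the CHR motif (17.9%). Of 27 mitotic genes, 1 held the E2F motif (3.7%) and 11 the CHR motif (40.7%). Among all named probe sets that rose, 21 of 247 genes (8.5%) held the E2F motif, against 1 of 181 genes that fell (0.552%). The genes that rose include members of the E2F target list. These are counts of letters in a window and not of bound sites.

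Replication-dependent histone genes, expressed in S phase, were looked at after their values had been seen. Of 53 measured genes, 12 rose (22.6%, against 1.46% of all probe sets) and 0 fell, with a median difference of 0.27. By symbol they are genes of H2A, H2B and H3. The largest were H2bc14 (above), H2bc18 at 1.28 (adjusted p = 0.00109), H2bc12 at 0.99 (adjusted p = 0.000203) and H2bc3 at 0.87 (adjusted p = 0.000325). These genes are near-identical copies, so probe sets of different members may share signal. Of 19 condensin and cohesin genes, also looked at afterwards, 5 rose (26.3%). They were Cdca5 by 1.09, Ncaph by 1.04, Ncapg by 1.01, Sgo1 by 0.97 and Smc2 by 0.57 (adjusted p from 0.00555 to 0.0264).

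Among the upstream regulators, of 14 measured genes of the Rb family, D cyclins and CDK inhibitors, 0 rose and 1 fell (7.14%, against 2.51% of all probe sets; median 0.10). The one that fell was Cdk6, a kinase that phosphorylates Rb, at 5.99, 6.27 and 6.64 against 6.62, 7.09 and 7.45. Its difference was -0.74 ± 0.17 (adjusted p = 0.0102), and a single transgenic array, ST25, reached above the lowest non-transgenic one. Rb1 differed by 0.20 ± 0.09 (adjusted p = 0.256) and Cdkn1a, the CDK inhibitor p21, by 0.25 ± 0.13 (adjusted p = 0.338). Of 18 p53 targets and regulators, none passed (median 0.05), and 1 rose with the AUC as a covariate (Btg2, an antiproliferative p53 target, adjusted p = 0.0392). The lowest adjusted p was that of Ccng1, cyclin G1, at -0.88 ± 0.28 (adjusted p = 0.0713). Ccng1 values were nevertheless apart, at 5.82 to 6.06 with the transgene and 6.09 to 7.30 without.

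Differentiation markers of prostate epithelium gave 1 call in each of 3 lists, which is 5.0%, 8.33% and 9.09% of their members, against 2.51% of all probe sets. Of 20 androgen-regulated and secretory genes 1 fell, Abcc4, an organic anion pump, by 0.45 on the log2 scale (adjusted p = 0.047), and 0 rose (median -0.10). That call did not pass with the AUC as a covariate (adjusted p = 0.0893) or in 18-week animals (0.0665). Pbsn read 9.88, 10.48 and 11.08 against 10.87, 12.18 and 12.55, and S1 was the only non-transgenic array within the transgenic range. Its difference of -1.42 ± 0.48 had an adjusted p of 0.102. Msmb, another secretory protein, differed by 1.61 ± 0.70 (adjusted p = 0.216), the opposite sign.

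Of 12 luminal and progenitor markers, Krt4, a keratin of stratified and progenitor epithelium, rose by 0.67 ± 0.19 (adjusted p = 0.0374), and 0 fell. The median of that list was -0.11, with 5 of 12 differences above 0. Krt4 passed in 5 of the 13 fits that leave out 1 array, Abcc4 in 3 and Trp63 (below) in 11. Psca, a surface antigen of luminal progenitors, differed by 0.81 ± 0.34 (adjusted p = 0.203), with an adjusted p of 0.0236 when the AUC was a covariate and 0.0373 in 18-week animals. Of 11 basal markers (median -0.05), Trp63, the transcription factor that defines basal cells, fell by 0.73 on the log2 scale (SE 0.19, adjusted p = 0.0215). Its ranges are apart (5.66 to 6.12 against 6.17 to 6.80), and its adjusted p was 0.0608 in 18-week animals. Krt5 differed by -0.53 ± 0.19 (adjusted p = 0.133).

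No neuroendocrine marker of 22 measured passed the test in either direction (median 0.08, and -0.02 with the AUC as a covariate). Chgb differed by 0.28 ± 0.12 (adjusted p = 0.185), Insm1, a transcription factor of neuroendocrine cells, by 0.35 ± 0.15 (adjusted p = 0.195), and Syp, synaptophysin, by -0.24 ± 0.14 (adjusted p = 0.382). Syp values were nevertheless apart, at 6.14 to 6.24 with the transgene and 6.31 to 6.60 without.

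**Figure D3:**
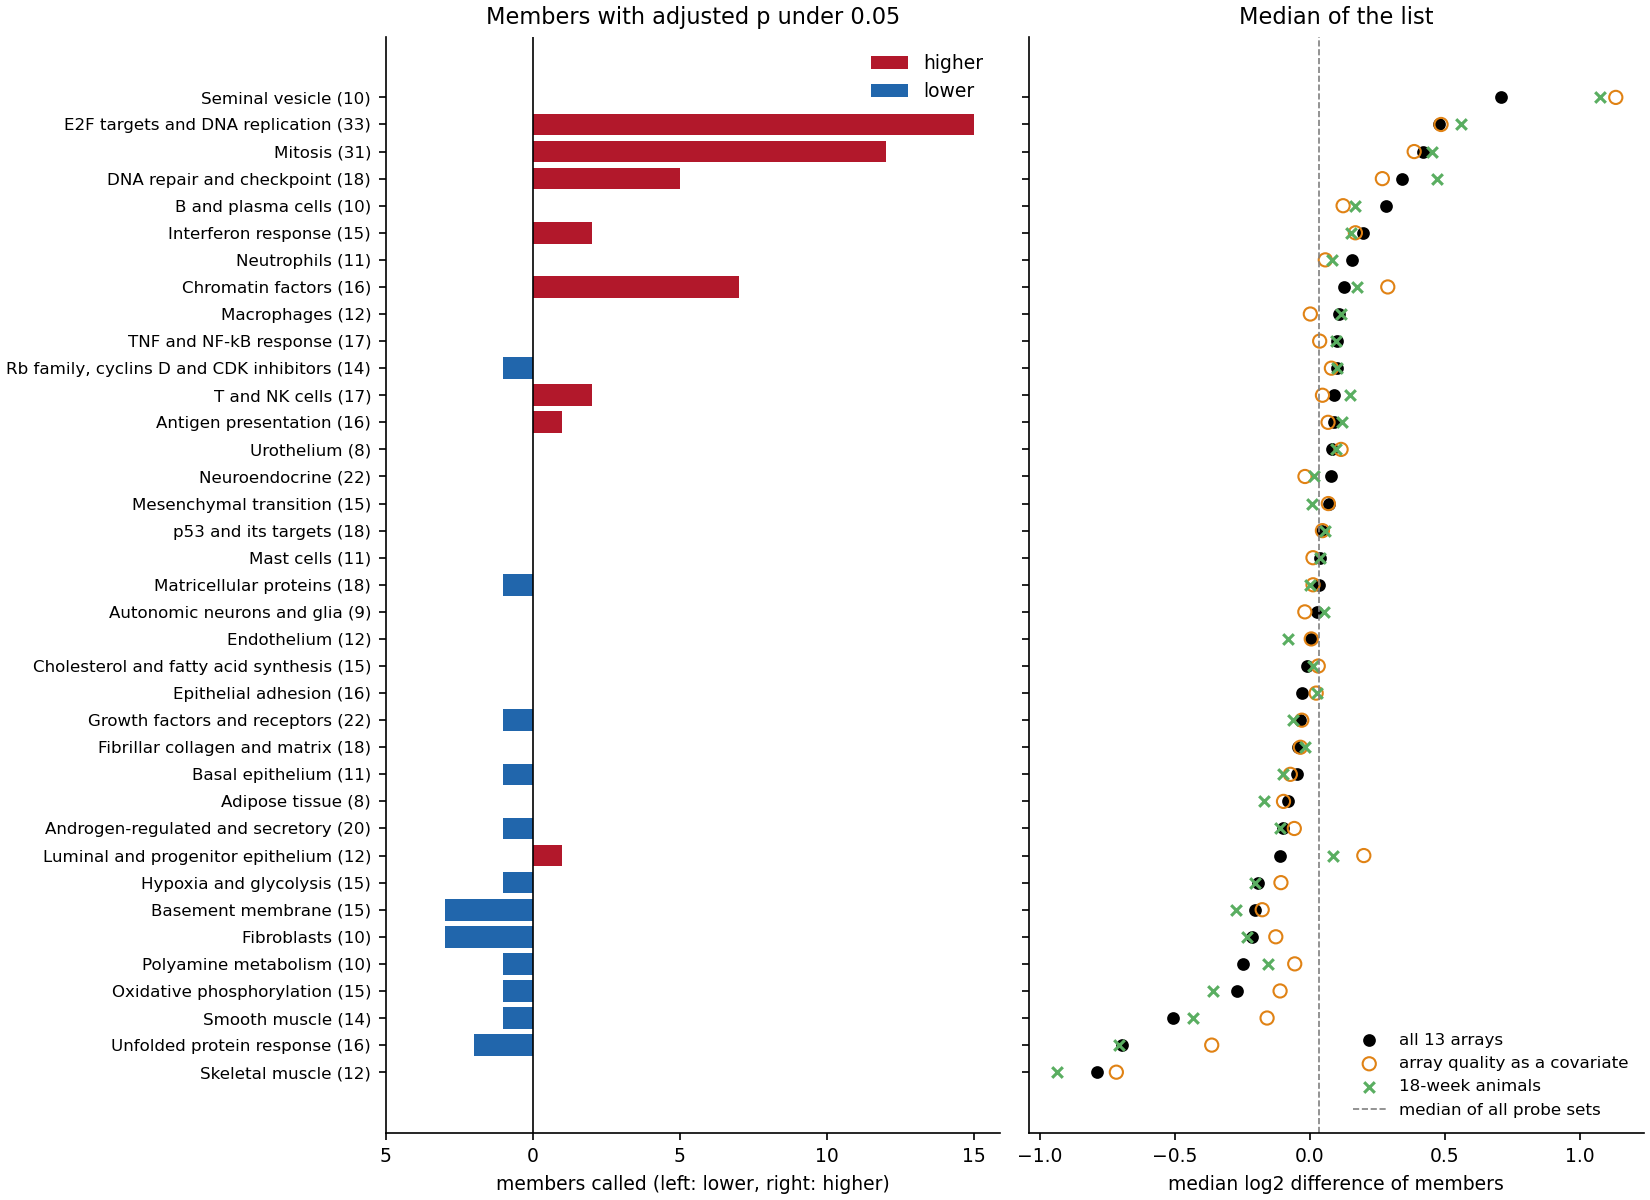
Members with an adjusted p under 0.05 in each of 37 gene lists (left, number measured in parentheses) and the median log2 difference of each list (right) with all 13 arrays, with array quality as a covariate and in 18-week animals. The replication, mitosis, DNA repair and chromatin lists hold 39 of the calls upward, and medians of the smooth muscle and unfolded protein response lists lie nearer to 0 when array quality is a covariate.

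Stromal and matrix genes fell in small numbers. Apod, apolipoprotein D, a lipocalin secreted by fibroblasts, had the largest fall among named probe sets that passed, at 5.83, 6.46 and 7.69 against 6.84, 8.24 and 9.70. The difference was -1.82 ± 0.39 (adjusted p = 0.00421), with ST25 the highest transgenic array and S11 and S1 the lowest non-transgenic ones. Of 10 fibroblast markers 3 fell (30.0%, against 1.05% of all probe sets), and 4 differences were above 0 (median -0.21). Besides Apod, Dpt, the matrix protein dermatopontin, and Clec3b, tetranectin, fell by 0.88 and 0.82 on the log2 scale (adjusted p = 0.0295 and 0.00902). With the AUC as a covariate Dpt did not pass (adjusted p = 0.054). Dpt read 6.55 to 6.81 on all 6 transgenic arrays and 6.80 to 8.08 on the others, where S1 was lowest.

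Of 15 basement membrane genes 3 fell and 0 rose (median -0.20); 1 fell with the AUC as a covariate, and 4 fell in 18-week animals. Agrn, the proteoglycan agrin, read 6.28, 7.33 and 7.74 against 7.75, 8.05 and 8.27, ranges apart, a difference of -0.85 ± 0.17 (adjusted p = 0.0016). Col18a1, the collagen that yields endostatin, and Nid1, nidogen, fell by 0.53 and 0.49 on the log2 scale (adjusted p = 0.039 and 0.0402, and 0.0567 and 0.0813 with the AUC as a covariate). Of 18 matricellular genes, the family of SPARC, 1 fell (5.56%, against 1.05% of all probe sets). It was Fstl1, which shares a domain with SPARC, by 0.61 on the log2 scale (adjusted p = 0.00623). Of 18 fibrillar collagen and matrix genes none passed (median -0.04), and Col1a1 differed by 0.15 ± 0.12 (adjusted p = 0.557). With 1 array left out at a time, Agrn and Fstl1 passed in all 13 fits, Dpt in 9, Col18a1 in 4 and Nid1 in 3.

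Of 14 smooth muscle genes 1 fell (7.14%, against 1.05% of all probe sets). It was Tpm2, a tropomyosin of contractile filaments, at 7.55, 7.88 and 8.50 against 8.51, 9.46 and 9.84. Its ranges are just apart, with a difference of -1.30 ± 0.28 (adjusted p = 0.00409). All 14 differences were below 0 with a median of -0.50, which was -0.16 with the AUC as a covariate. The mean level of the list (mean deviation from the gene means) ran from -0.67 to 0.17 on the transgenic arrays. On the non-transgenic arrays it ran from -0.34 to 0.50. Acta2 differed by -0.65 ± 0.37 (adjusted p = 0.365). Skeletal muscle genes, which the prostate itself should lack, gave no call among 12, and all 12 differences were below 0 (median -0.79). Myl1, a myosin light chain of fast muscle, read 7.59 to 9.19 against 9.51 to 10.95 (difference -1.58 ± 0.51, adjusted p = 0.0803). The share of muscle tissue in the samples was not tested as a source of the difference in Tpm2.

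Genes of the seminal vesicle, a gland beside the prostate, varied within both groups. Svs5, a seminal vesicle secretory protein, read from 5.49 to 13.07 on the transgenic arrays and from 5.10 to 12.89 on the non-transgenic arrays. No gene of that list of 10 passed the test (median 0.71). The list's mean level was highest on ST24 (4.07) and lowest on S7 (-1.74).

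Growth factor and metabolic genes gave single calls. Egf, epidermal growth factor, read 5.60, 5.87 and 6.58 against 6.23, 6.85 and 7.93, a difference of -1.06 ± 0.22 (adjusted p = 0.00262). It was the only call among 22 growth factors and receptors (4.55%, against 2.51% of all probe sets). Aldoa, a glycolytic aldolase, fell by 0.82 (adjusted p = 0.0181), Sdha, a subunit of succinate dehydrogenase, by 0.76 (adjusted p = 0.00846), and Sat1, which acetylates polyamines, by 1.07 (adjusted p = 0.0384; 0.0665 with the AUC as a covariate and 0.0599 in 18-week animals), all on the log2 scale. Egf and Sdha passed in all 13 fits that leave out 1 array, Aldoa in 11 and Sat1 in 4. Sat1 lay low in the signal range: its lower mean exceeded only 16.4% of the negative control values.

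Genes of the secretory pathway made up part of the 12 largest falls. Sec11a, the catalytic subunit of signal peptidase, read 4.57, 5.75 and 6.28 against 5.08, 7.35 and 7.92. The difference was -1.43 ± 0.40 (adjusted p = 0.0384), and S1 was the lowest non-transgenic array, inside the transgenic range. Cltc, the clathrin heavy chain, fell by 1.34 on the log2 scale (SE 0.38, adjusted p = 0.0389) and Gbf1, an exchange factor for Golgi Arf proteins, by 1.24 (SE 0.35, adjusted p = 0.0398). Man1a, a Golgi mannosidase, read 6.38, 6.82 and 7.02 against 6.58, 8.03 and 8.82, a difference of -1.16 ± 0.26 (adjusted p = 0.00622). Rcn1, a calcium-binding protein of the endoplasmic reticulum, fell by 1.16 (adjusted p = 0.0264).

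The remaining members of the 12 were Leng8 at -1.48 ± 0.33 (adjusted p = 0.0072), Gstm2, a glutathione transferase, at -1.27 ± 0.31 (0.0148), Zcchc7 at -1.22 ± 0.31 (0.0188), the transcription factor Klf12 at -1.17 ± 0.31 (0.0295) and Uqcc1, an assembly factor of respiratory complex III, at -1.12 ± 0.33 (0.0484). In 18-week animals Sec11a, Cltc, Gstm2, Gbf1 and Uqcc1 did not pass (adjusted p = 0.0954, 0.0664, 0.0503, 0.0722 and 0.165), with differences from -0.92 to -1.30. Klf12 did not pass with the AUC as a covariate (adjusted p = 0.0579). S1 lay inside the transgenic range for all of the 12 except Tpm2 and Klf12. When each of the 13 arrays was left out in turn, Apod, Leng8, Tpm2 and Man1a passed every time, Gstm2 in 12 of 13, Zcchc7 in 8, Klf12 in 7, Sec11a, Gbf1 and Rcn1 in 6, Cltc in 5 and Uqcc1 in 3.

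**Figure D4:**
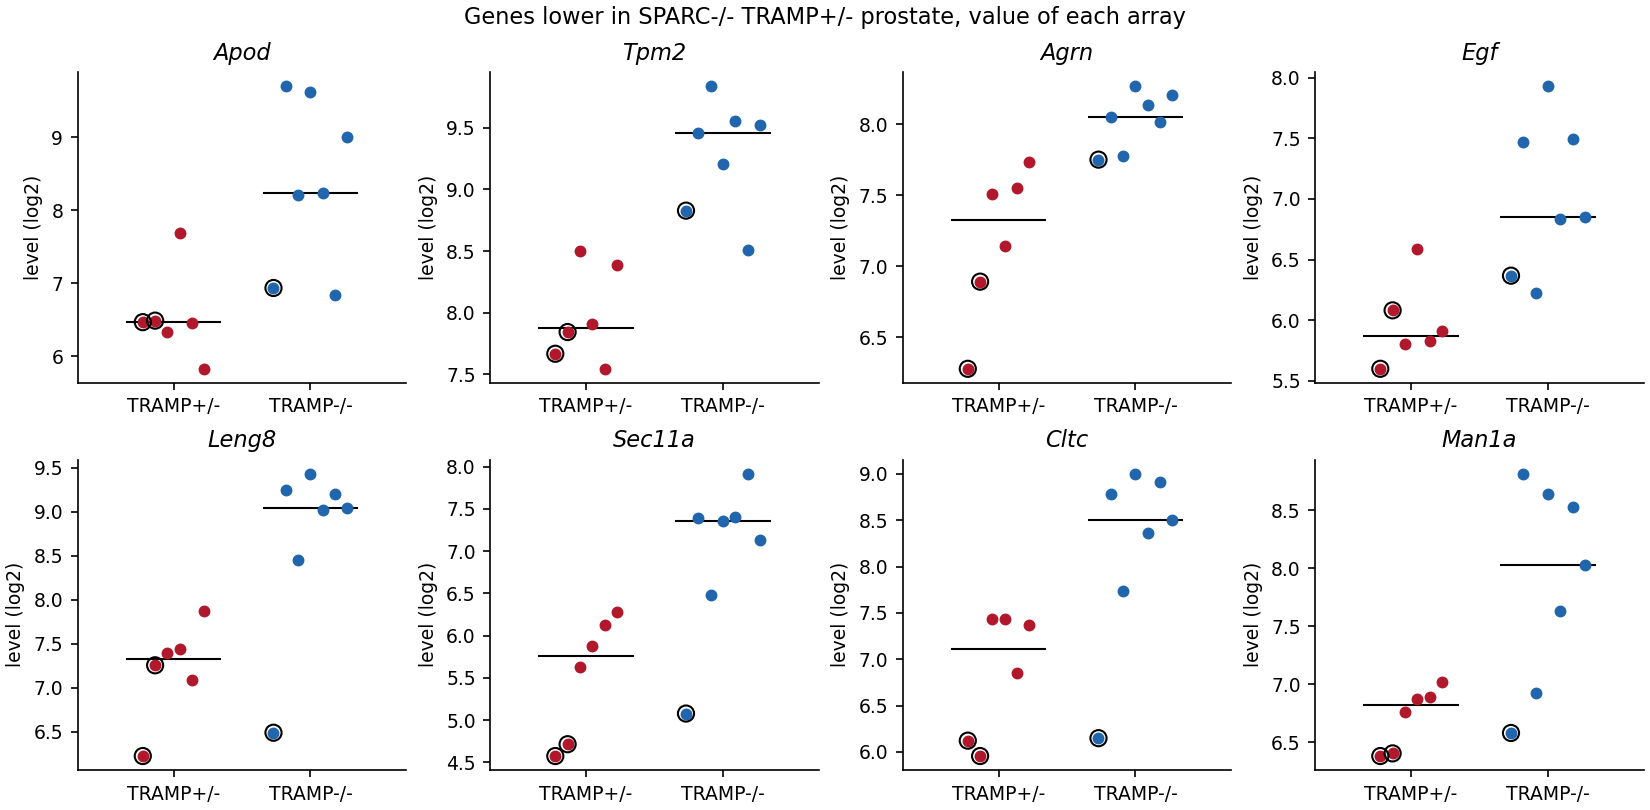
Log2 value of each array for 8 genes that fell with the transgene, SPARC-/- TRAMP+/- beside SPARC-/- TRAMP-/-. Lines are medians and rings mark ST22, ST23 and S1; Tpm2 and Agrn are apart between the groups, and for Leng8, Sec11a, Cltc and Man1a the ringed S1 lies among the transgenic arrays.

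Genes of the unfolded protein response, which matches folding capacity to secretion, had a median of -0.69. Of 16 measured, 2 fell (12.5%, against 1.05% of all probe sets). These were Sel1l, of the degradation complex of the endoplasmic reticulum, at -0.89 ± 0.25 (adjusted p = 0.0411) and Pdia6, a disulfide isomerase, at -0.75 ± 0.22 (adjusted p = 0.0447). Neither passed with the AUC as a covariate (adjusted p = 0.0794 and 0.0921), and each passed in 4 of the 13 fits that leave out 1 array. In 18-week animals Pdia6 did not pass either (adjusted p = 0.0887). With the covariate the median of the list was -0.36. Hspa5, the chaperone BiP, read 9.44 to 10.62 against 10.62 to 11.76 (difference -1.03 ± 0.37, adjusted p = 0.119). The mean level of the list was lowest on ST22 (-1.23), S1 (-0.84) and ST23 (-0.58), the arrays of lowest AUC.

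Genes of secretion and of protein synthesis were also looked at in lists assembled after the values had been seen. Of 54 genes of COPI, COPII and Golgi trafficking, 11 fell (20.4%, against 1.05% of all probe sets) and 0 rose (median -0.33). Of 27 genes of signal recognition and translocation at the endoplasmic reticulum, 5 fell (18.5%, median -0.55). Of 18 cytosolic aminoacyl-tRNA synthetases, 4 fell (22.2%, median -0.34). With the AUC as a covariate 8, 3 and 4 fell, with medians of -0.13, -0.18 and -0.19, and 1 trafficking gene rose. In 18-week animals 6, 2 and 4 fell. Examples are Sec13, a COPII coat subunit, at -0.57 ± 0.11 (adjusted p = 0.00132), Arf4 at -1.04 ± 0.27 (adjusted p = 0.0221) and Wars, the tryptophanyl-tRNA synthetase, at -1.02 ± 0.22 (adjusted p = 0.00402). Arf4 had an adjusted p of 0.121 in 18-week animals.

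The share of immune genes called was near that of all probe sets (2.51%). Over 5 lists of leukocyte markers (macrophages, neutrophils, mast cells, B lineage, T and NK lineage), 2 of 61 genes rose and 0 fell. These were Gzmb, granzyme B, at 0.64 ± 0.17 (adjusted p = 0.0225) and Cd3d, a chain of the T cell receptor complex, at 0.53 ± 0.14 (adjusted p = 0.0282). Neither passed in 18-week animals (adjusted p = 0.185 and 0.271), Cd3d did not pass with the AUC as a covariate (adjusted p = 0.0567), and with 1 array left out they passed in 7 and 8 of 13 fits. Cd3d was highest on ST22 (5.65) and ST23 (5.42). The mean level of the 17 T and NK cell genes was 0.23 on ST22 and 0.21 on ST23, and 0.17 on S1.

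Of 15 interferon response genes 2 rose (13.3%, against 1.46% of all probe sets). Usp18, which removes ISG15, rose by 0.66 ± 0.18 (adjusted p = 0.0338). Irf7, a transcription factor of interferon induction, rose by 0.53 ± 0.14 (adjusted p = 0.0282, and 0.0651 in 18-week animals). Irf7 values were apart (4.59 to 5.03 against 3.78 to 4.45). Psmb8, a subunit of the immunoproteasome, rose by 0.60 ± 0.14 (adjusted p = 0.00942, and 0.101 in 18-week animals). It was the single call among 16 antigen presentation genes (6.25%). With 1 array left out, Psmb8 passed in 12 of 13 fits, Irf7 in 8 and Usp18 in 4. No gene passed in the lists of mesenchymal transition, epithelial adhesion, endothelium, TNF and NF-kB response, cholesterol and fatty acid synthesis, adipose tissue, urothelium, or autonomic neurons and glia. With the AUC as a covariate 1 gene rose in each of the epithelial adhesion (Cdh1, E-cadherin, adjusted p = 0.00871), cholesterol (Fdft1, squalene synthase, 0.0206) and urothelium (Upk1b, a uroplakin, 0.032) lists.

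One of the largest rises was that of an olfactory receptor gene. Olfr167 read 6.85, 7.99 and 8.44 against 5.55, 5.91 and 7.03, a difference of 1.75 ± 0.28 (adjusted p = 0.000103). ST22 was the one transgenic array below the highest non-transgenic array, S1. Its neighbours on chromosome 16 were looked at for this reason. In RefSeq order the next measured genes are Olfr168 at 0.73 ± 0.19 (adjusted p = 0.0287), Olfr169 at 0.73 ± 0.15 (adjusted p = 0.00293), Olfr170 at 0.42 ± 0.17 (adjusted p = 0.183), Olfr171 at 1.08 ± 0.21 (adjusted p = 0.00171) and Lamp3 at 0.42 ± 0.13 (adjusted p = 0.0529). Olfr168 did not pass with the AUC as a covariate (adjusted p = 0.0533) or in 18-week animals (0.0912), and Lamp3 passed in 18-week animals (0.00437). The next gene, B3gnt5, differed by 0.05 ± 0.12 (adjusted p = 0.878). On the other side Olfr166, Olfr165 and Olfr164 differed by 0.13, 0.12 and 0.22 (adjusted p from 0.382 to 0.75). Olfactory receptor genes are similar in sequence, and signal shared between their probe sets was not tested.

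The same transgene comparison was available in 3 other settings, which share no arrays with the one above. Mice labelled TRAMP+/- and TRAMP-/- with no deletion named, called wild-type Sparc here (7 and 4 arrays, 16 weeks), gave 8 calls (0.036%). OPN-/- TRAMP+/- and OPN-/- TRAMP-/- mice, which lack osteopontin (6 and 5 arrays, 16 to 17 weeks), gave 21 (0.0946%), and late SPARC-null mice (9 transgenic of 24 to 29 weeks and 4 controls of 25 to 27 weeks) gave 282 (1.27%). A test of the difference between the early SPARC-null effect and each of these called 0 probe sets (0%) in each case. The lowest adjusted p was 0.221 against wild-type Sparc, 0.556 against OPN-null and 1.0 against late SPARC-null mice, and 825, 1711 and 723 probe sets had an unadjusted p under 0.05. The numbers of calls therefore do not show that the effects differ in size. The early sets also differ in age, so background and age cannot be told apart there.

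Of the 558 calls, 7 were also called the same way with wild-type Sparc, which is 1.25% of the 558 and 87.5% of the 8. They are Casp2, Ccne2, Cdc6, Hells, Mki67, Olfr167 and Ube2c. With OPN-null mice 16 were shared (2.87% of the 558 and 76.2% of the 21), and with late SPARC-null mice 125 (22.4% of the 558 and 44.3% of the 282).

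Ccne2, the largest rise, differed by 2.76 ± 0.29 in early SPARC-null, 2.03 with wild-type Sparc, 2.20 in OPN-null and 2.87 in late SPARC-null mice. For Hells the values were 2.58, 2.50, 2.81 and 2.97, and for Olfr167 1.75, 2.27, 1.87 and 2.75, all called in all 4 settings. Mki67 was called in all 4 as well, at 1.32, 1.35, 1.30 and 2.19. Obp2a was called in SPARC-null mice of both ages (1.57 early, 2.32 late) and not with wild-type Sparc (0.99, adjusted p = 0.532) or in OPN-null mice (1.30, adjusted p = 0.243). The test of the difference for Obp2a gave an adjusted p of 1.0 against wild-type Sparc and 0.875 against OPN-null mice.

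Among the falls, no difference between settings passed. Apod fell by 1.82 on the log2 scale in early SPARC-null mice and differed by -0.33 with wild-type Sparc (difference of effects -1.49 ± 0.60, adjusted p = 1.0), by -0.17 in OPN-null mice (-1.66 ± 0.58, adjusted p = 0.625) and by -1.23 in late SPARC-null mice. Egf differed by -0.12, -0.32 and -0.85 in these 3 settings, Tpm2 by -0.38, -0.49 and -0.46 and Agrn by -0.36, -0.15 and 0.04, none called. Man1a fell in SPARC-null mice of both ages (-1.16 and -1.26, adjusted p = 0.00622 and 0.00775), and differed by -0.44 with wild-type Sparc and -0.08 in OPN-null mice (adjusted p = 0.757 and 1.0).

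The median of the E2F target list was 0.48 in early SPARC-null mice, 0.38 with wild-type Sparc, 0.47 in OPN-null and 0.56 in late SPARC-null mice, with 15, 2, 4 and 16 members higher and none lower. For mitosis the medians were 0.42, 0.28, 0.25 and 0.46. The median over all probe sets in the other 3 settings was 0.02, -0.03 and 0.03. Neuroendocrine markers gave no call in any of the 4 settings.

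**Figure D5:**
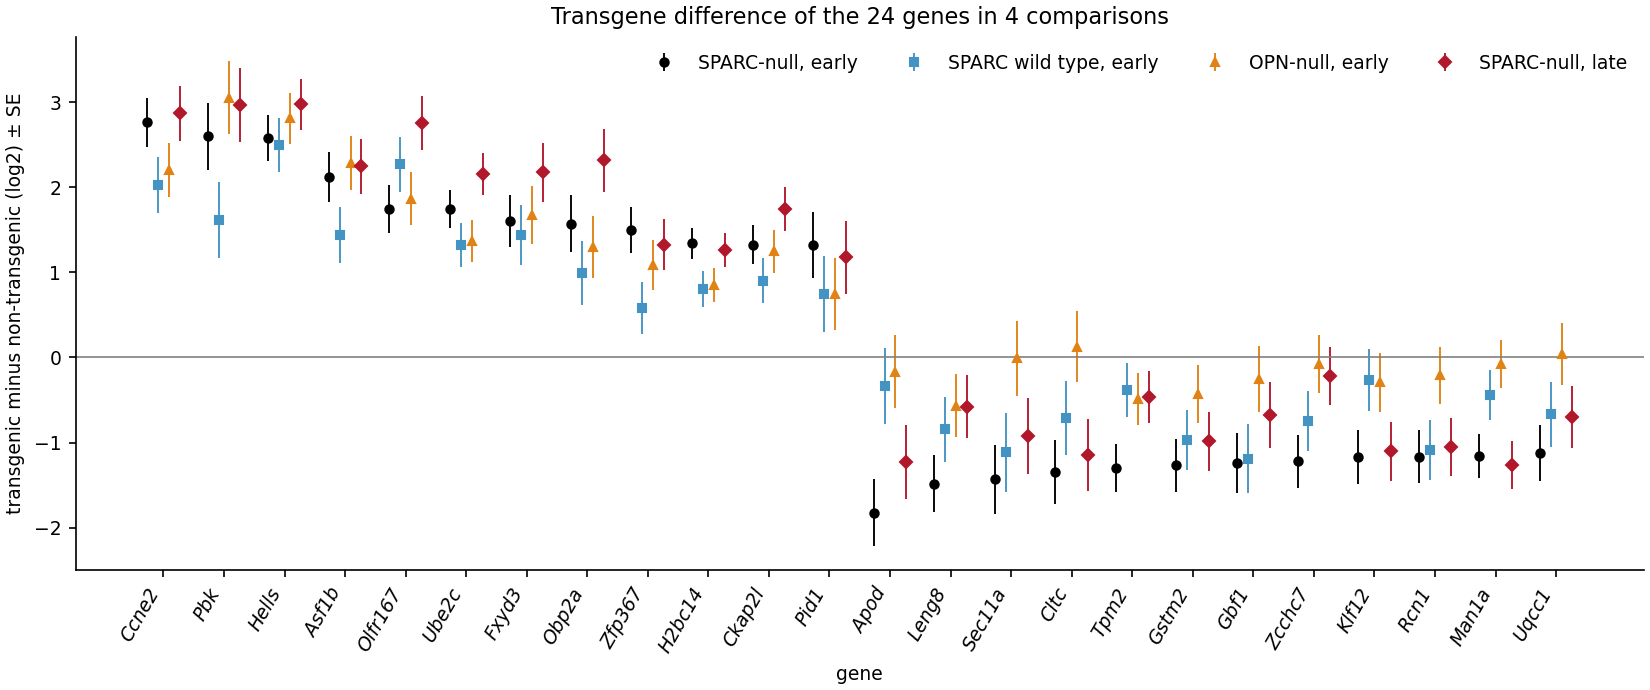
Transgenic minus non-transgenic difference (log2, error bars are the SE of the fit) of the 12 largest called rises and 12 largest called falls in early SPARC-null mice, beside the same genes in early mice with wild-type Sparc, early OPN-null mice and late SPARC-null mice. Genes were chosen on the black points; the rises lie above 0 in all 4 settings, and in OPN-null mice the falls lie between -0.57 and 0.13.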

How the data were processed

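Total RNA of the 68 samples was hybridised to Clariom S arrays. The authors deposited log2 values per probe set, made with RMA in the oligo package per the submitters' processing notes; their versions and the genome build are not given in the sources. Of 29129 probe sets, 6923 controls stayed out of the tests. RMA compresses differences at low signal, and no filter on signal was set. The number of arrays limits the precision.

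With limma 3.58.1 in R 4.3.3, 1 mean per group was fitted over 67 arrays in 12 groups, with weights by transgene status from arrayWeights (1.11 transgenic, 0.87 non-transgenic). P-values (2-sided) were adjusted over 22206 probe sets by Benjamini-Hochberg and called under 0.05. Differences are log2 with the SE of the fit. On simulated data with 200 shifted probe sets, 42% of shifts of 0.5 and 93% of shifts of 1 were recovered, with 5 false calls among 140. The simulated noise was independent for each probe set and array, with no differences in array quality. These rates may therefore not hold for the real arrays. Single values were tested by exact permutation with SciPy (1.17.1).

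A gene with several probe sets is represented by the one of highest mean. Named are Sparc, the 12 probe sets with 1 symbol that rose most and the 12 that fell most among the calls (predicted and clone names left out), and up to 4 called members of each of 37 lists, which measured 557 distinct genes; others were named after their values were seen. A called gene of the DNA repair list is not reported here. Members, lists and rule were chosen with earlier results of these data known. Alternatives covered weights, samples in the fit, array quality, age, scaling, dim probe sets, variance model, a 2-fold limit and each array left out.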

Additional observations from a re-analysis of the deposited data

Results flagged for a closer look

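In 22 of 194 groups of values examined, the highest or lowest array stood further from its neighbour than Dixon's 95% limit allows; chance alone does this in about 1 in 20 groups. A mean level below is the mean deviation of a list's genes from their means over the 13 arrays.

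S1, the 16-week array of lowest AUC, was the array that stood apart most often. It was the lowest non-transgenic array for Pid1 (6.082), Leng8 (6.488), Gbf1 (6.189), Zcchc7 (6.676), Hmgb2 (6.098) and Fstl1 (7.697). It was also the lowest for the mean levels of hypoxia and glycolysis (-0.438) and oxidative phosphorylation (-0.577) genes. It was the highest for Cdk1 (5.185) and Plk1 (7.686) and for the mean levels of DNA repair (-0.048) and macrophage (0.613) genes. ST22, also of low AUC, was the lowest transgenic array for Pid1 (7.673) and for hypoxia and glycolysis genes (-0.311).

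Among the other arrays, Apod was highest among transgenic arrays on ST25 (7.688), where mast cell genes were lowest (-0.164). Fibrillar collagen genes were lowest on ST27 (-0.178). Seminal vesicle genes were highest on ST24 (4.074) in the transgenic group and lowest on S7 (-1.745) in the other. Among non-transgenic arrays, Mki67 was highest on S9 (6.193), Irf7 lowest on S11 (3.785), and autonomic neuron and glia genes highest on S8 (0.359).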

How the results depend on the processing

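The direction of the 57 called genes named by rule did not turn under any alternative run. The 558 calls became 60 with a 2-fold limit, 2523 with 1 weight per array, 80 with only the 13 arrays in the fit, 1737 without arrays of AUC under 0.7, and 360 without ST22 and ST23 (an alternative chosen after seeing the data; 280 higher, 80 lower, 236 of them among the 558). Leaving out 1 array gave 297 (without S7) to 1737 (without S1); without S9, S10, S11 and S12 it gave 299, 361, 321 and 307. With array quality as a covariate 709 probe sets (3.19%) were called and 391 of the 558 were among them; in 18-week animals 461 (2.08%) were called. Of 30 named rises, 29 kept their call with array quality as a covariate, 26 in 18-week animals and 17 with only the 13 arrays. Of 27 named falls, 19, 18 and 5 did. Without ST22 and ST23, 26 rises and 8 falls kept their call, and with age in weeks as a covariate 27 and 16 did. Leaving out 1 array kept from 25 rises and 13 falls (without S7 or S12) to 28 rises and 27 falls (without S1). The difference of effects against OPN-null mice went from 0 calls to 16 with 1 weight per array and to 1 without OPN-null TRAMP replicate 3; that against wild-type Sparc went to 4 with array quality as a covariate. Sparc differed by 0.18 to 0.34 over arrays left out. Its exact permutation p was 0.0559 with all 13 arrays, 0.0455 without ST25 and 0.00433 without S8. The AUC difference ranged from -0.0319 to -0.0142 over arrays left out and was -0.0183 in 18-week animals and -0.0248 without arrays of AUC under 0.7. The SV40 difference ranged from 1.48 to 1.84 over arrays left out and was 1.97 in 18-week animals. The cause of these shifts was not tested. No paired analysis was possible because replicate numbers only follow accession order and no label links animals of the groups. Of 962 list medians recomputed, 24 moved by more than 1 SD of the list's mean level. Of 999 list counts of called members recomputed, 213 moved by over 3 to 2.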
